A study of Mus musculus with 90 samples.

Results

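The comparison described here is day 8 against day 6 of the neural differentiation of the mouse embryonic stem cell line labelled CBX7-mCaPS. Its members were chosen by label: 3 libraries of day 6 and 3 of day 8, so 6 of the 90 RNA sequencing libraries of the series. All groups were made from J1 mouse embryonic stem cells that differ in the version of CBX7: WT, CaPS, mCaPS and KO. CBX7 is a subunit of Polycomb repressive complex 1 (PRC1), and CaPS names a compaction and phase separation domain that in mammals belongs to CBX2, another subunit of the same family. mCaPS is the version of CBX7 with the mutated form of that domain. The KO line is labelled as a knockout of CBX7. How the versions were introduced and how many clones each line represents are not given in the sources used here.

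For the neural series, stem cells freed of feeder cells were aggregated in suspension for 4 days without LIF, the cytokine that holds stem cells in the undifferentiated state. Retinoic acid was then added at 5 uM, and cells were collected at days 6 and 8, so both groups compared carry the mutated version and have been exposed to retinoic acid. RNA was total RNA depleted of rRNA. Whether the 3 libraries of a group came from separate cultures is not stated, so the p-values below rest on a spread between libraries. That spread was estimated jointly over the 36 libraries of the 4 lines in the neural series, not from the 6 mCaPS libraries alone. The mean SD of log2 CPM within mCaPS was 0.358 at day 6 and 0.519 at day 8.

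PRC1 binds and compacts chromatin at developmental genes and helps to keep them silent until a lineage needs them. Retinoic acid given to aggregates of stem cells binds the RAR and RXR nuclear receptors, activates the Hox genes of the head and neck end of the clusters, and directs the cells towards neural progenitors, which later express proneural factors and then neuronal structural genes. Aggregates that do not become neural can form mesoderm, whose derivatives include epicardium, smooth muscle and the fibroblast-like cells that secrete collagens and other matrix proteins.

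Cbx7 itself was at 15.6, 27.1 and 15 CPM (counts scaled to a common library size, with TMM factors) in mCaPS libraries 1, 2 and 3 of day 6 and at 10.6, 13.7 and 14.7 CPM at day 8. All 3 libraries of day 8 lay below the 3 of day 6, with a log2 fold change of -0.57 ± 0.32 (SE) that did not pass the test (adjusted p = 0.561, edgeR). Cbx2, the natural owner of the domain, was at 105, 87.9 and 96 CPM at day 6 and at 103, 83.3 and 45.5 CPM at day 8. Cbx7 counts were also present in the line labelled KO (27.9, 35 and 32.9 CPM at day 6), so gene-level counts of Cbx7 do not show which version a library carries.

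The 6 mCaPS libraries had totals of 38049230 to 55692090 counts, of which the rRNA precursor Rn45s took 11.9 to 36.6%. Day 8 library 3 stood apart. It had the highest Rn45s share, its log2 CPM profile was most like that of day 6 library 1 (Pearson r = 0.96 across genes) rather than that of another day 8 library, and its mean level of cell cycle genes was the lowest of the 6. Day 6 library 2 stood apart on the other side, with the highest level of neural progenitor genes of the day 6 libraries and the lowest level of lateral mesoderm genes. The median of a list in mCaPS is followed below by its values without day 8 library 3 and without day 6 library 2, the latter of which left no list member passing. Dividing stem cells, mesoderm and neural cells occur in mixtures in such aggregates, and in these bulk samples fewer cells of a type and less RNA per cell cannot be told apart.

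Retinoic acid response genes gave an entry point, because the ligand was present at both days. Among the 512 genes of the lists described below with a promoter in the RefSeq table (GRCm38.p6, 250 bases before to 50 after the gene start), 2 held the direct repeat with a spacer of 5 bases that RAR and RXR bind (the DR5 element, searched on both strands): Cyp26a1, which encodes an enzyme that degrades retinoic acid, and Rarb, which encodes a retinoic acid receptor. In all 32851 windows of the table the element was found in 0.0974%. Of the genes that changed in mCaPS, 36 were matched in the table and 0 held it in any window. At so low a share, 36 genes are too few for this count to be read. The 250 bases before the start of each gene are shown because they hold the DR5 element, which is in capitals. Elements outside the window were not searched. Cyp26a1 lies on the plus strand (chr19:37697558-37697807) and Rarb on the minus strand (chr14:16575477-16575726), with the element starting 32 and 53 bases before the gene start.

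Cyp26a1: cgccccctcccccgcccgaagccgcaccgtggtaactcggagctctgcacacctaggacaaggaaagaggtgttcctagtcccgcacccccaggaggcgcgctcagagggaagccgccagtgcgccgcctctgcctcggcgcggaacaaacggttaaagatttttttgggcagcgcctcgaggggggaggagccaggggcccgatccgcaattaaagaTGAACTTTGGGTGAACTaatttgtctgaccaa

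Rarb: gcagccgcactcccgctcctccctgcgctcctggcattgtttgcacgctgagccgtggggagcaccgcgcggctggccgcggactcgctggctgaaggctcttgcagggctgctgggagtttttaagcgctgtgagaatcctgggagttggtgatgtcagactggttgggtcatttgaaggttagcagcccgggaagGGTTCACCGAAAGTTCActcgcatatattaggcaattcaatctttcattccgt

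Rarb was at 161, 125 and 189 CPM in day 6 libraries 1, 2 and 3 and at 220, 183 and 278 CPM at day 8. Each day 8 library lay above its day 6 counterpart, the 2 groups overlapped, and the log2 fold change of 0.52 ± 0.29 did not pass the test (adjusted p = 0.558). Cyp26a1 was at 130, 172 and 141 CPM at day 6 and at 55.9, 145 and 32.5 CPM at day 8, again with overlap (-0.93 ± 0.71, adjusted p = 0.708). Its relative Cyp26b1 was at 586, 201 and 362 CPM at day 6 and at 593, 376 and 151 CPM at day 8, so its 6 libraries covered one range. In WT the mean of Cyp26b1 was 132 CPM at day 6 and 1365 CPM at day 8. None of the 22 retinoic acid response genes tested passed at an adjusted p below 0.05 in mCaPS with edgeR or DESeq2, and 5 rose in WT. In mCaPS 4 had an unadjusted p below 0.05 with edgeR, where 10.6% of all genes did. The median log2 fold change of the list was 0.02 in mCaPS and 0.11 in WT, beside 0.02 over all genes in mCaPS. Without the libraries named above it was 0.20 and 0.22. For Cyp26b1 the difference between the time changes of mCaPS and WT passed with DESeq2 (log2 -3.40, adjusted p = 0.00837) but no gene passed with edgeR.

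Across the 17818 genes tested, 47 changed between day 6 and day 8 in mCaPS at an adjusted p below 0.05 (edgeR's quasi-likelihood test, Benjamini-Hochberg adjustment). These are 0.264% of the genes, with 32 higher at day 8 (0.18%) and 15 lower (0.0842%). At an unadjusted p below 0.05 there were 10.6%, with 6.18% higher and 4.38% lower. The genes that rose encode, among others, an endopeptidase, a glutamate transporter, a growth factor of mesenchyme, a collagen chain and a cell cycle inhibitor. Those that fell include a pluripotency RNA-binding protein, the de novo DNA methyltransferase Dnmt3b and the nodal pathway factor Foxh1. Since same-numbered libraries of the 2 days deviated together, the fit with the replicate number as a block stands beside this count: it called 79 genes (52 higher and 27 lower), which include 38 of the 47. Over the same interval the other lines had more calls, with 7.34% of genes in WT (818 higher, 4.59%, and 490 lower, 2.75%), 5.01% in the line labelled KO and 3.18% in CaPS.

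The count depended on single libraries. Leaving out day 6 library 2 left 1 gene, Sec14l2, leaving out day 6 library 3 left 3, day 8 library 1 left 8 and day 6 library 1 left 24, whereas leaving out day 8 library 2 gave 87. Without day 8 library 3, which stood apart, 62 genes passed (51 higher and 11 lower), and 30 of the 47 were among them. DESeq2 called 276 genes, including all 47, and a fit on the 6 mCaPS libraries alone called 0 (1610 at an unadjusted p below 0.05). All 29 genes that meet the naming rule below kept their direction under each of these 12 alternatives.

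The naming rule took the called genes with a mean of at least 5 CPM in the higher group and no overlap between the 3 libraries of each day, up to the 15 with the highest and the 15 with the lowest log2 fold change, which gave 15 higher and 14 lower. Of the 29, Heyl, Cpt1a, Ern1 and Padi3 had an adjusted p of 0.0608, 0.0575, 0.064 and 0.0575 with the replicate block, and the other 25 passed. Without day 8 library 3 the genes that still passed were Ecel1, Sncg, Heyl, Abca1, Clstn2, Pdgfc, Slc1a3, Prickle2, Wnt2b, Aifm2, Foxh1, Sec14l2, Emb and Dnmt3b, while the log2 fold change of Epha2 went to 1.72 and that of Ern1 to 0.97. No overlap in itself was common, since in 8.27% of all genes the 3 day 8 libraries lay above the 3 day 6 libraries and in 9.1% below.

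**Figure D1:**
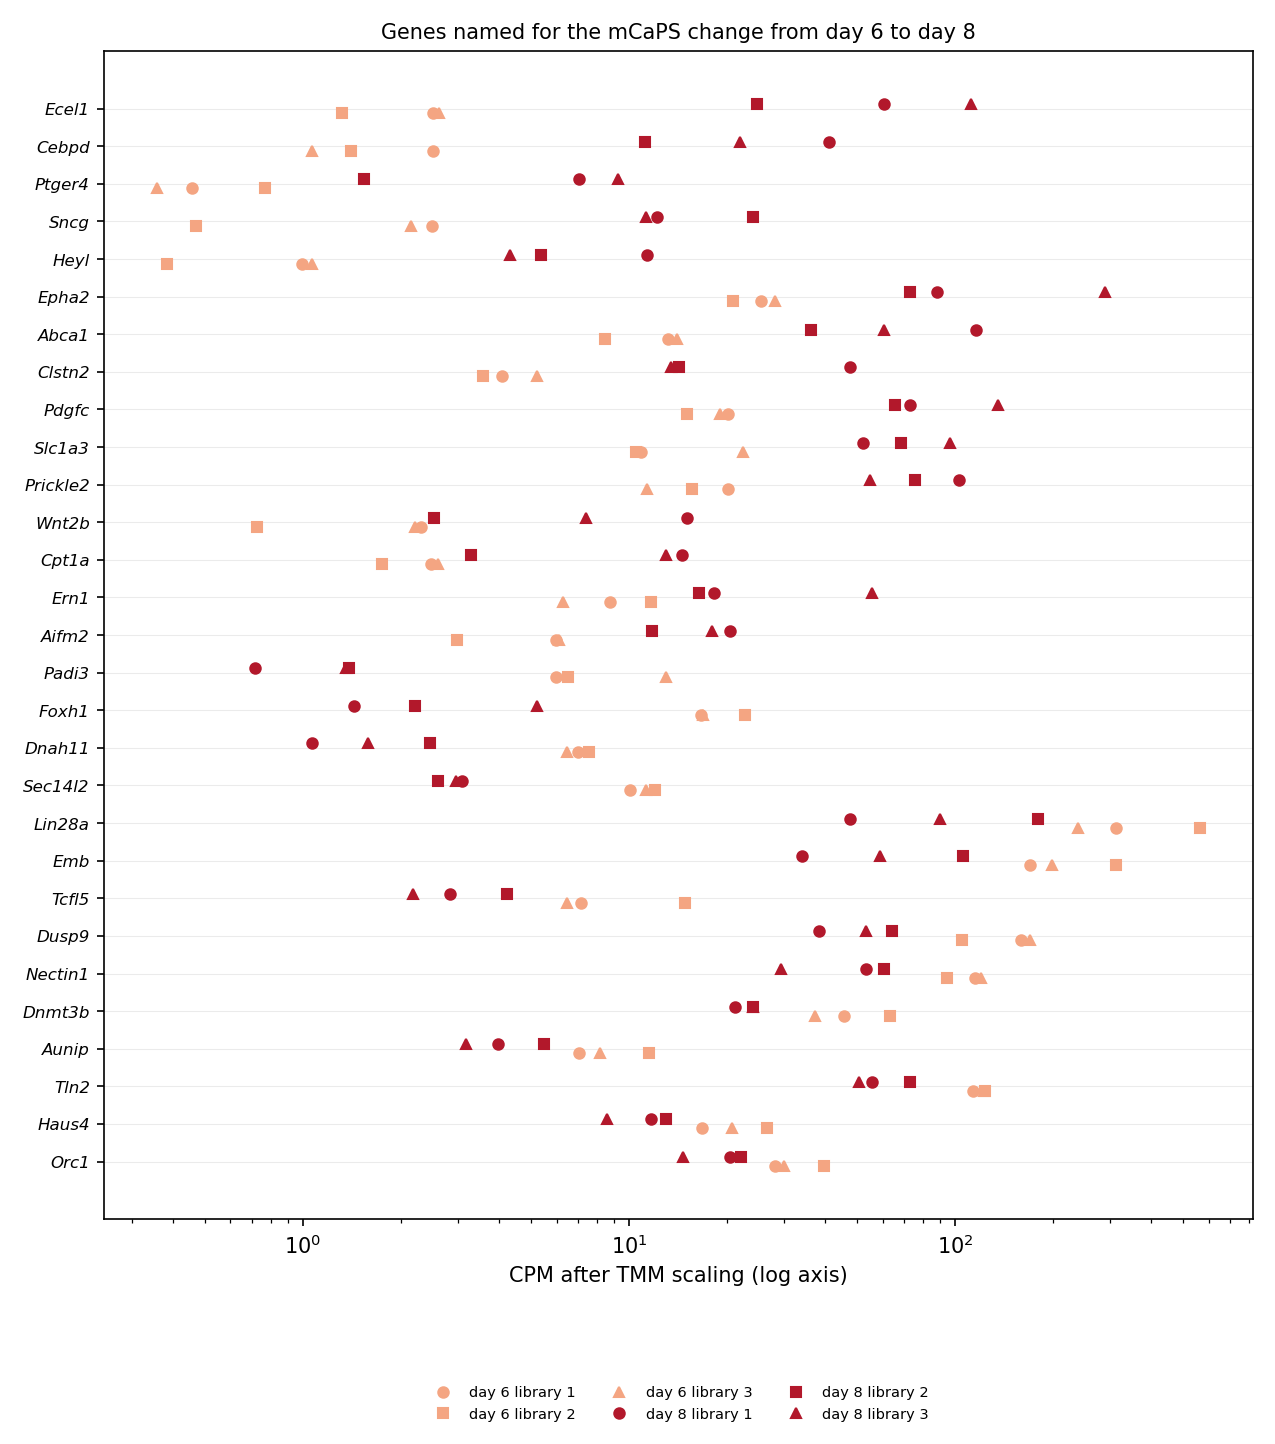
CPM of the 29 genes that meet the naming rule in each mCaPS library (horizontal axis, log scale), with pale symbols for day 6 and dark symbols for day 8, and a symbol shape for each replicate number. Ecel1 stands at 1.32 to 2.62 CPM at day 6 and at 24.7 to 112 CPM at day 8, and Sec14l2 at 10.1 to 12 and 2.59 to 3.08 CPM.

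Ecel1, which encodes an endothelin-converting-enzyme-like peptidase of neurons (chr1:87147655-87156356, mm10), was at 2.5, 1.32 and 2.62 CPM in day 6 libraries 1, 2 and 3. At day 8 it was at 60.7, 24.7 and 112 CPM. The highest value was in library 3, where the neuronal genes Tubb3 and Dcx were low, and the WT mean at day 8 was 6.49 CPM. Every day 8 library lay above every day 6 library, and the log2 fold change was 4.94 ± 0.82 (adjusted p = 0.0108). Ecel1 also rose in CaPS (4.12, adjusted p = 0.00345), whereas in WT the value was 0.70 (adjusted p = 0.614). The difference between the mCaPS and WT changes had an unadjusted p of 0.000308 and an adjusted p of 0.168 with edgeR (0.00913 with DESeq2).

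Pdgfc, a platelet-derived growth factor that acts on mesenchymal cells (chr3:81036416-81214040), was at 20.2, 15.1 and 19 CPM at day 6 and at 73, 65.3 and 136 CPM at day 8. The groups were apart by more than the range within day 6, and the log2 fold change was 2.34 ± 0.41 (adjusted p = 0.0121). Its WT libraries were at 19.5, 17.2 and 15.5 CPM at day 6 and at 13.3, 14.9 and 16.6 CPM at day 8, a log2 fold change of -0.22 (adjusted p = 0.807). The difference between these changes had an unadjusted p of 9.11e-05 and an adjusted p of 0.143, so it did not pass with edgeR over all libraries. It passed with DESeq2 (adjusted p = 0.00709) and with edgeR on days 6 and 8 of the 2 lines (adjusted p = 0.0297). Epha2, an ephrin receptor, rose from 25.5, 20.9 and 28 CPM to 88.4, 73 and 288 CPM (2.60 ± 0.51, adjusted p = 0.0228), with the highest value in day 8 library 3.

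Slc1a3, which encodes the glial glutamate transporter GLAST of radial glia (chr15:8634124-8710807), rose from 10.9, 10.5 and 22.4 CPM to 52.2, 68.4 and 96.3 CPM (2.31 ± 0.41, adjusted p = 0.0121). Slc1a3 was the only one of the 22 neural progenitor genes tested that passed as higher in mCaPS with edgeR, where 0.18% of all genes did. Of the 22, 14 had a log2 fold change above 0, where 51.7% of all genes did. The list median was 0.48 in mCaPS (0.58 without day 8 library 3 and 0.77 without day 6 library 2). It was 0.94 in WT, where 4 of the 22 rose, 0.50 in the line labelled KO and 1.06 in CaPS. The highest Slc1a3 value was in day 8 library 3, which had the lowest Sox2 and Pax6 of its day. Sncg, gamma-synuclein of peripheral and sensory neurons, rose from 2.49, 0.47 and 2.14 CPM to 12.2, 24 and 11.3 CPM (3.22 ± 0.54, adjusted p = 0.0108), and in WT by 3.15. Prickle2, a component of the planar cell polarity pathway, rose from 20.2, 15.6 and 11.4 CPM to 103, 75.5 and 55 CPM (2.31 ± 0.41, adjusted p = 0.0121). In all 3 genes no day 8 library fell within the day 6 range, and Slc1a3 and Prickle2 also rose in CaPS and in the line labelled KO.

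The WNT and Notch lists each had 1 member that passed as higher with edgeR, where 0.18% of all genes did. Wnt2b, a WNT ligand of mesothelium and other mesoderm (chr3:104944805-104961709), rose from 2.3, 0.726 and 2.21 CPM to 15.1, 2.52 and 7.37 CPM (2.25 ± 0.49, adjusted p = 0.038), with day 8 library 2 just above the highest day 6 library. Heyl, a Notch target of vascular smooth muscle and of neural tissue, rose from 0.997, 0.384 and 1.07 CPM to 11.4, 5.38 and 4.33 CPM (3.11 ± 0.68, adjusted p = 0.038, and 0.0608 with the replicate block). Of the other WNT ligands Wnt4 was at 21, 3.78 and 16.9 CPM at day 6 and at 109, 30.1 and 62.5 CPM at day 8, without overlap, and did not pass (2.27 ± 0.69, adjusted p = 0.175, and 0.037 with DESeq2). Wnt11 was at 13.6, 3.67 and 15 CPM and then at 45.6, 16 and 86.6 CPM (adjusted p = 0.3). The 33 WNT and hedgehog genes had a median of 0.30 (0.69 without day 8 library 3 and 0.57 without day 6 library 2) and the 21 Notch genes one of 0.39 (0.61 and 0.60). At an unadjusted p below 0.05 (edgeR), 5 of the 33 and 6 of the 21 were higher, against 6.18% of all genes, and 0 were lower. The WNT and hedgehog median was 0.07 in WT, 0.55 in the line labelled KO and 0.51 in CaPS. For Notch genes the values were 1.02, 1.35 and 0.85, and 9 of the 21 rose in WT.

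The ligand Tgfb3 lay closest to the threshold among the 32 TGF beta and BMP genes. It was at 15.1, 5.23 and 15.7 CPM at day 6 and at 191, 54.5 and 91 CPM at day 8. Each day 8 library was above all day 6 libraries, and the log2 fold change of 3.22 ± 0.75 had an adjusted p of 0.0538. With the replicate block it passed (3.18, adjusted p = 0.0481). WT libraries of day 8 were at 7.21, 19.4 and 11.8 CPM, and those of CaPS at 8.89, 153 and 114 CPM. The SMAD target Smad7 was at 57.2, 41 and 73.3 CPM at day 6 and at 88.3, 46.7 and 148 CPM at day 8, with overlap. None of the 32 genes passed with edgeR, and 1 did with DESeq2, which was Tgfb3. At an unadjusted p below 0.05 (edgeR) there were 7, against 10.6% of all genes.

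The remaining genes of the rule that rose serve metabolism, stress responses and adhesion. Abca1, the cholesterol exporter, rose from 13.2, 8.45 and 14.1 CPM to 116, 36.3 and 60.6 CPM (2.57 ± 0.45, adjusted p = 0.0121). Cebpd, a transcription factor of inflammation and fat cell differentiation, rose from 2.5, 1.41 and 1.07 CPM to 41, 11.2 and 22 CPM (3.89 ± 0.86, adjusted p = 0.0424), although its exons overlap those of Spidr on the opposite strand. Ptger4, a prostaglandin receptor, Clstn2, a synaptic adhesion protein, Cpt1a, which moves fatty acids into mitochondria, Ern1, a sensor of unfolded protein, and Aifm2, an oxidoreductase that protects from ferroptosis, rose by 1.74 to 3.48 on the log2 scale. Aifm2 also overlaps an opposite-strand gene, H2afy2, as do 7 of the 47 called genes in all, and since the strand setting of the counting is not given, reads of such pairs cannot be told apart.

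Cdkn1c, an imprinted inhibitor of cyclin-dependent kinases that marks cells leaving the cell cycle (chr7:143458339-143461050), rose from 158, 129 and 152 CPM to 585, 260 and 347 CPM (1.44 ± 0.29, adjusted p = 0.023). Its day 6 libraries were tight and all 3 day 8 libraries lay above them, and it rose by 2.62 in WT, where day 6 was lower. Beside it, none of the 28 cell cycle genes passed with edgeR (18 had an unadjusted p below 0.05, all lower at day 8, against 4.38% of all genes, 4 passed with DESeq2, and Ccnb2 passed with the replicate block at -0.96, adjusted p = 0.0426). In 19 of these 28 genes the 3 day 8 libraries lay below the 3 day 6 libraries, against 9.1% of all genes. Mki67 was at 704, 802 and 874 CPM at day 6 and at 573, 531 and 232 CPM at day 8, and the lowest value was that of library 3. The list mean in log2(CPM + 1) was 6.65, 6.87 and 6.68 at day 6 and 6.48, 6.55 and 5.64 at day 8, and the list of CDK inhibitors and p53 targets was highest in the same library, at 5.99 against 5.37 in both others. Without that library no cell cycle gene passed either.

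Among the genes that fell, Sec14l2, which encodes a lipid transfer protein that binds tocopherol (chr11:4097040-4118729), had the smallest p. It was at 10.1, 12 and 11.3 CPM at day 6 and at 3.08, 2.59 and 2.94 CPM at day 8, a fall of 1.96 ± 0.26 on the log2 scale (adjusted p = 0.000458). Both groups were tight, and the gene passed in 11 of the 12 alternatives. It fell in CaPS as well (-1.72, adjusted p = 0.000386) but its value was -0.36 in WT and -0.34 in the line labelled KO, and the difference from WT had an unadjusted p of 0.000109 and an adjusted p of 0.143 with edgeR (0.00709 with DESeq2).

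Lin28a, an RNA-binding protein that keeps let-7 microRNAs low in stem cells (chr4:134003330-134018816), fell from 312, 566 and 239 CPM to 47.6, 180 and 90 CPM (-1.82 ± 0.39, adjusted p = 0.0348). It was the only one of 26 pluripotency genes that passed in mCaPS with edgeR, where 0.0842% of all genes passed as lower. In WT 17 of the 26 fell, against 2.75% of all genes. At an unadjusted p below 0.05 (edgeR), 11 of the 26 were lower in mCaPS and 1 was higher, against 4.38% and 6.18% of all genes. Dnmt3b, the de novo DNA methyltransferase of the epiblast (chr2:153649449-153687730), fell from 45.6, 63.4 and 37.2 CPM to 21.2, 24 and 24.1 CPM (-1.08 ± 0.21, adjusted p = 0.0227), and it fell in the 3 other lines too, by 1.26 in WT. Foxh1, the DNA-binding partner of nodal-activated SMADs, fell from 16.6, 22.7 and 16.9 CPM to 1.44, 2.21 and 5.24 CPM (-2.67 ± 0.54, adjusted p = 0.023). In these 3 genes every day 8 library was below every day 6 library.

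Of the 26 genes of the pluripotency list 23 had a log2 fold change below 0, while 51.7% of all genes were above 0. Nanog was at 2.54, 17.7 and 12.3 CPM at day 6 and at 1.72, 1.2 and 4.69 CPM at day 8, and did not pass (-2.12 ± 0.55, adjusted p = 0.0893). Pou5f1, which encodes OCT4, was at 7.74, 21.5 and 12.2 CPM and then at 3.47, 3.84 and 15.7 CPM, so that day 8 library 3 kept a level within the day 6 range. Without that library Nanog, Esrrb and Dppa5a passed as lower at day 8 (adjusted p = 0.0353, 0.0221 and 0.0327) and Lin28a did not (-1.70, adjusted p = 0.106). With the replicate block Lin28a and Dppa5a passed, and with DESeq2 on all libraries Lin28a, Dppa5a, Nanog and Esrrb. The median log2 fold change of the 26 genes was -0.94 in mCaPS (-1.89 without day 8 library 3 and -0.46 without day 6 library 2) and -1.93 in WT.

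The other genes of the rule that fell include Emb, an adhesion molecule of the immunoglobulin family, from 170, 313 and 198 CPM to 33.9, 106 and 58.9 CPM (-1.78 ± 0.33, adjusted p = 0.0134), and Dusp9, a MAP kinase phosphatase of stem cells, from 159, 105 and 170 CPM to 38.4, 64 and 53.5 CPM (-1.48 ± 0.32, adjusted p = 0.0387). Nectin1, an adherens junction protein, fell from 115, 94.9 and 120 CPM to 53.2, 60.8 and 29.3 CPM (-1.20 ± 0.24, adjusted p = 0.023). In WT Nectin1 had a log2 fold change of 0.07 and the difference between the lines had an unadjusted p of 0.000806 (adjusted p = 0.221). The DNA replication factor Orc1 and the centrosome and spindle genes Haus4 and Aunip fell by 0.77 to 1.07, and Tln2, Tcfl5, Dnah11 and Padi3 fell by 1.01 to 2.88. Exons of Tcfl5 overlap those of Col9a3 on the opposite strand, and exons of Dnah11 those of Cdca7l, so the limit given above for such pairs holds for both.

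The other 18 called genes were below 5 CPM, overlapped between days or rose less than the 15 highest. Esm1 and Pax5 are named here after their values were seen. Esm1, an endothelial tip cell gene, was at 0 in all 3 day 6 libraries and at 1.21, 1.01 and 0.259 CPM at day 8, at least 13-fold higher against a floor of 3 counts in each day 6 library. Pax5, a midbrain and hindbrain patterning gene, was at 0.27, 0.171 and 0.0509 CPM at day 6 and at 4.1, 6.02 and 0.129 CPM at day 8, with library 3 inside the day 6 range.

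The cells are labelled neural progenitors, and their defining markers were present at low levels in mCaPS. Sox2 was at 10.4, 74.3 and 16 CPM at day 6 and at 17, 42 and 8.66 CPM at day 8, and Pax6 at 19.2, 92 and 10.1 CPM and then at 20.5, 62.2 and 2.17 CPM. Library 2 was the highest of its day for both genes, and day 8 library 3 the lowest. WT means at day 8 were 219 CPM for Sox2 and 125 CPM for Pax6. Nes, the intermediate filament nestin, was at 109, 117 and 69.2 CPM at day 6 and at 225, 155 and 75.1 CPM at day 8 in mCaPS, with a WT mean of 360 CPM at day 8. Of the 70 genes on the lists of neural progenitor, proneural and neuronal genes, 66 had all 3 mCaPS libraries below the 3 WT libraries at day 8 and none above, while 18.2% of all genes had them below and 17.8% above. Levels of the 2 lines at 1 day are given as a description, without a test.

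**Figure D2:**
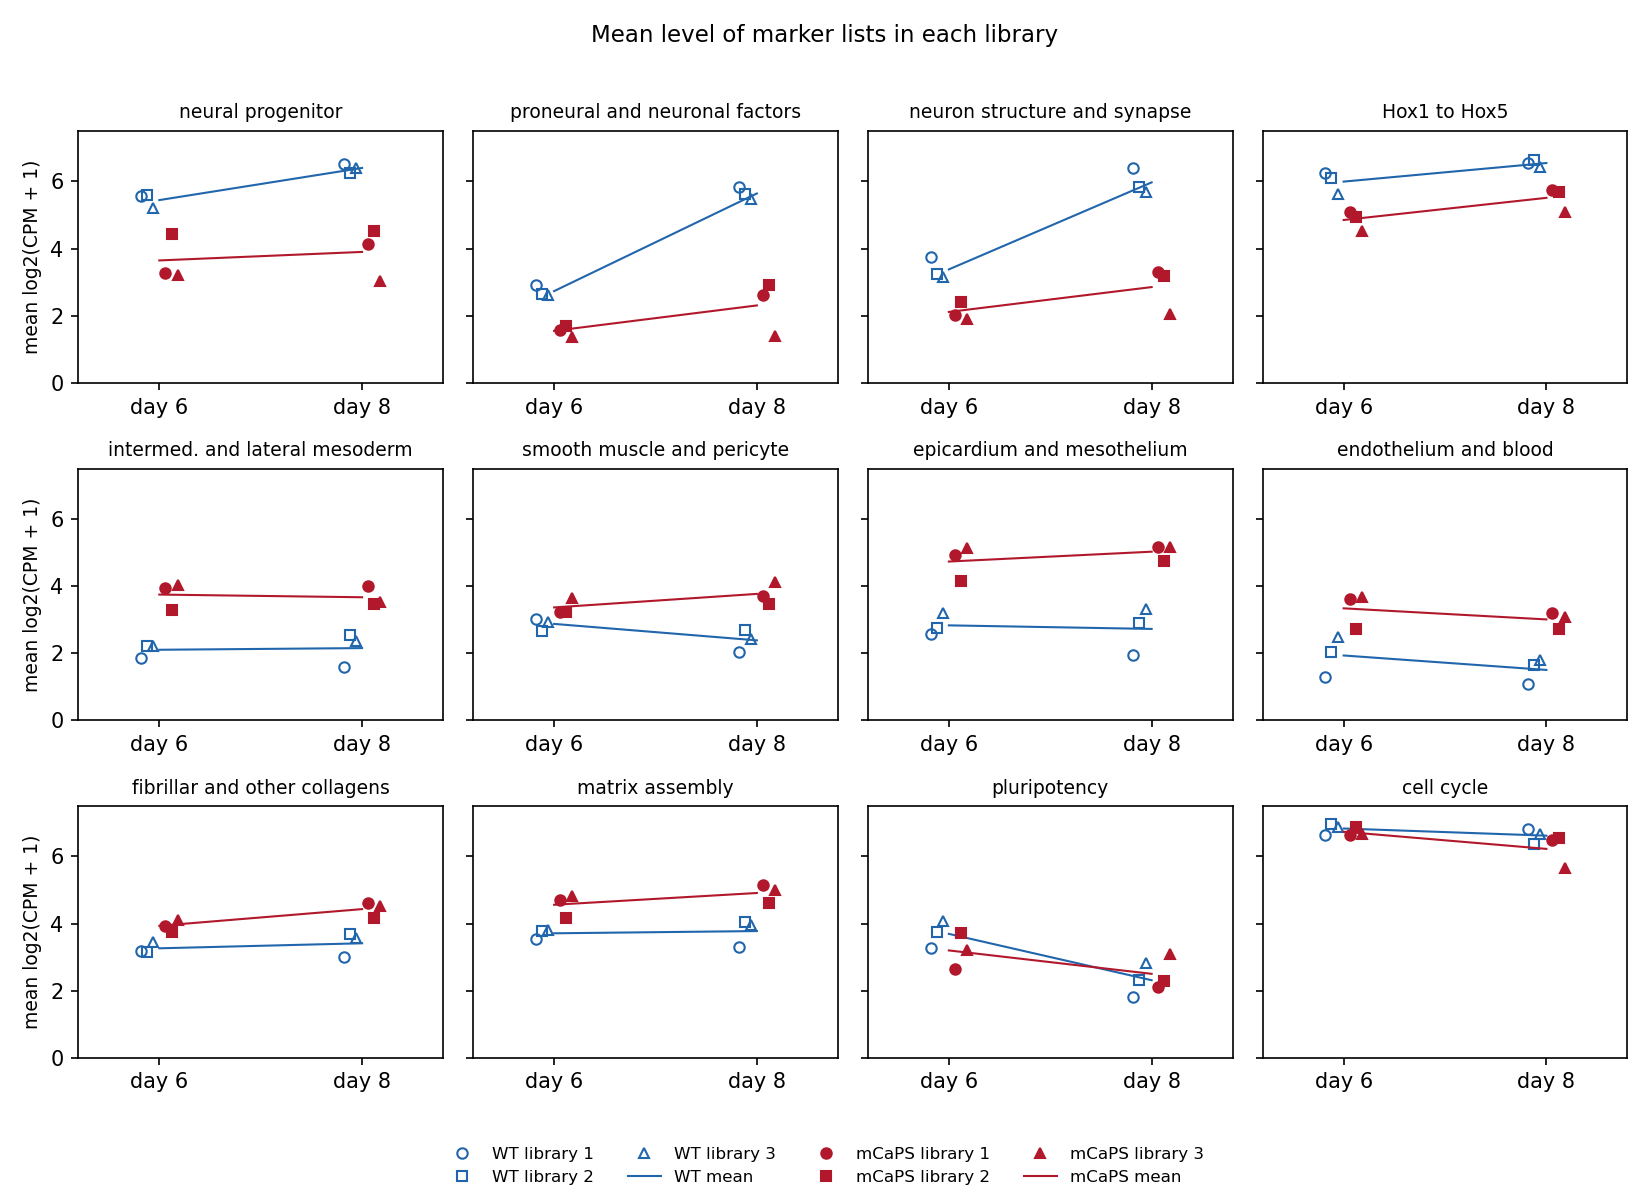
Mean log2(CPM + 1) of the members of 12 lists (vertical axis) at days 6 and 8 (horizontal axis), with filled red symbols for mCaPS libraries, open blue symbols for WT libraries, a symbol shape for each replicate number and lines that join the means of 3 libraries. The proneural list goes from 2.62 to 2.92 up to 5.47 to 5.84 in WT, while in mCaPS libraries 1 and 2 of day 8 stand at 2.62 and 2.91 and library 3 at 1.39, within the day 6 values.

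Proneural and neuronal transcription factors were the neural list with the largest values. Scrt1, a repressor made by newborn neurons (chr15:76516203-76522129), rose from 0.101, 0.171 and 0.153 CPM to 2.18, 3.53 and 0.841 CPM (3.94 ± 0.86, adjusted p = 0.0348), and was the only one of the 22 tested that passed with edgeR. DESeq2 called 8, which were Scrt1, Scrt2, Nhlh1, Nhlh2, Myt1, Neurod1, Neurod4 and St18. Neurod1, which drives neuronal differentiation, was at 0.135, 0.512 and 0.203 CPM at day 6 and at 3.39, 5.78 and 0.323 CPM at day 8 (adjusted p = 0.0556). Nhlh2, a factor of early neurons, was at 0.169, 0.32 and 0 CPM and then at 6.92, 6.72 and 0.129 CPM (adjusted p = 0.0643). Libraries 1 and 2 of day 8 were high in both genes and library 3 was inside the day 6 range. With the replicate block 5 proneural genes passed (Scrt1, Scrt2, Nhlh1, Nhlh2 and Myt1), and without day 8 library 3 6 passed (Scrt1, Scrt2, Nhlh2, Myt1, Neurod1 and Neurod4). Scrt1 itself no longer passed without any 1 of the other 5 mCaPS libraries or with no filter on low counts.

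In WT 17 of these 22 factors rose, and their means at day 8 were far above those of mCaPS: 76 CPM for Scrt1, 33.6 CPM for Neurod1 and 119 CPM for Nhlh2. The median log2 fold change was 2.51 in mCaPS (2.98 without day 8 library 3 and 3.29 without day 6 library 2) and 3.47 in WT. No gene had a difference between the changes of mCaPS and WT that passed with edgeR (1523 genes at an unadjusted p below 0.05, and 70 passed with DESeq2). Of the 22 factors 8 had an unadjusted p below 0.05, all with the smaller change in mCaPS, against 4.33% of all genes in that direction.

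Genes of neuronal structure and synapse gave 0 calls among 26 in mCaPS with edgeR, while 22 rose in WT. At an unadjusted p below 0.05 there were 13, all higher at day 8, against 6.18% of all genes. DESeq2 called 5. The median was 1.17 in mCaPS (1.53 without day 8 library 3 and 1.35 without day 6 library 2) and 2.93 in WT. Tubb3, the neuronal beta-tubulin, was at 1.13, 1.37 and 0.814 CPM at day 6 and at 14.7, 11.7 and 1.78 CPM at day 8 (3.09 ± 0.95, adjusted p = 0.177). Dcx, the doublecortin of migrating neurons, was at 7.15, 1.24 and 2.19 CPM and then at 40.3, 18.8 and 2.39 CPM (adjusted p = 0.258). Ncam1, a neural cell adhesion molecule that mesoderm also makes, was at 61.8, 30.6 and 54.7 CPM at day 6 and at 207, 78.3 and 154 CPM at day 8 (1.58 ± 0.42, adjusted p = 0.0926), and passed with the block (adjusted p = 0.0426). Ncam1 was high in day 8 library 3, where Tubb3 and Dcx were low. WT means at day 8 were 263, 287 and 263 CPM for Tubb3, Dcx and Ncam1.

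Hox genes 1 to 5 include direct and early targets of retinoic acid. The mean log2(CPM + 1) of the 15 genes was 5.09, 4.93 and 4.53 in day 6 libraries 1, 2 and 3 and 5.74, 5.69 and 5.1 at day 8, with 6.43 to 6.65 in WT at day 8. Hoxa4 was at 45.8, 12.5 and 25.3 CPM at day 6 and at 93.9, 64.8 and 69.7 CPM at day 8, without overlap (1.45 ± 0.38, adjusted p = 0.0888). Hoxc5 was at 47.6, 58.2 and 25.5 CPM and then at 164, 171 and 77.5 CPM, also without overlap (1.65 ± 0.51, adjusted p = 0.177). None of the 15 passed with edgeR, 1 passed with DESeq2, which was Hoxa4, and Hoxa5 passed with the block (1.42, adjusted p = 0.0487). At an unadjusted p below 0.05 (edgeR) there were 6, all higher, against 6.18% of all genes. The median was 0.85 in mCaPS (1.02 without day 8 library 3 and 0.86 without day 6 library 2) and 0.76 in WT. In 6 of the 15 genes all day 8 libraries were above all day 6 libraries, against 8.27% of all genes. Genes of the trunk and tail end of the clusters, Hox6 to Hox13, were low: their summed level was 43.8 to 110 CPM in mCaPS at day 8 and 915 to 1880 CPM in WT. In mCaPS the sum was 22.1 to 29.1 CPM at day 6. The median of the 21 tested was 1.03 in mCaPS (0.35 without day 8 library 3 and 0.86 without day 6 library 2) and 1.19 in WT. None of them passed in mCaPS with edgeR.

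**Figure D3:**
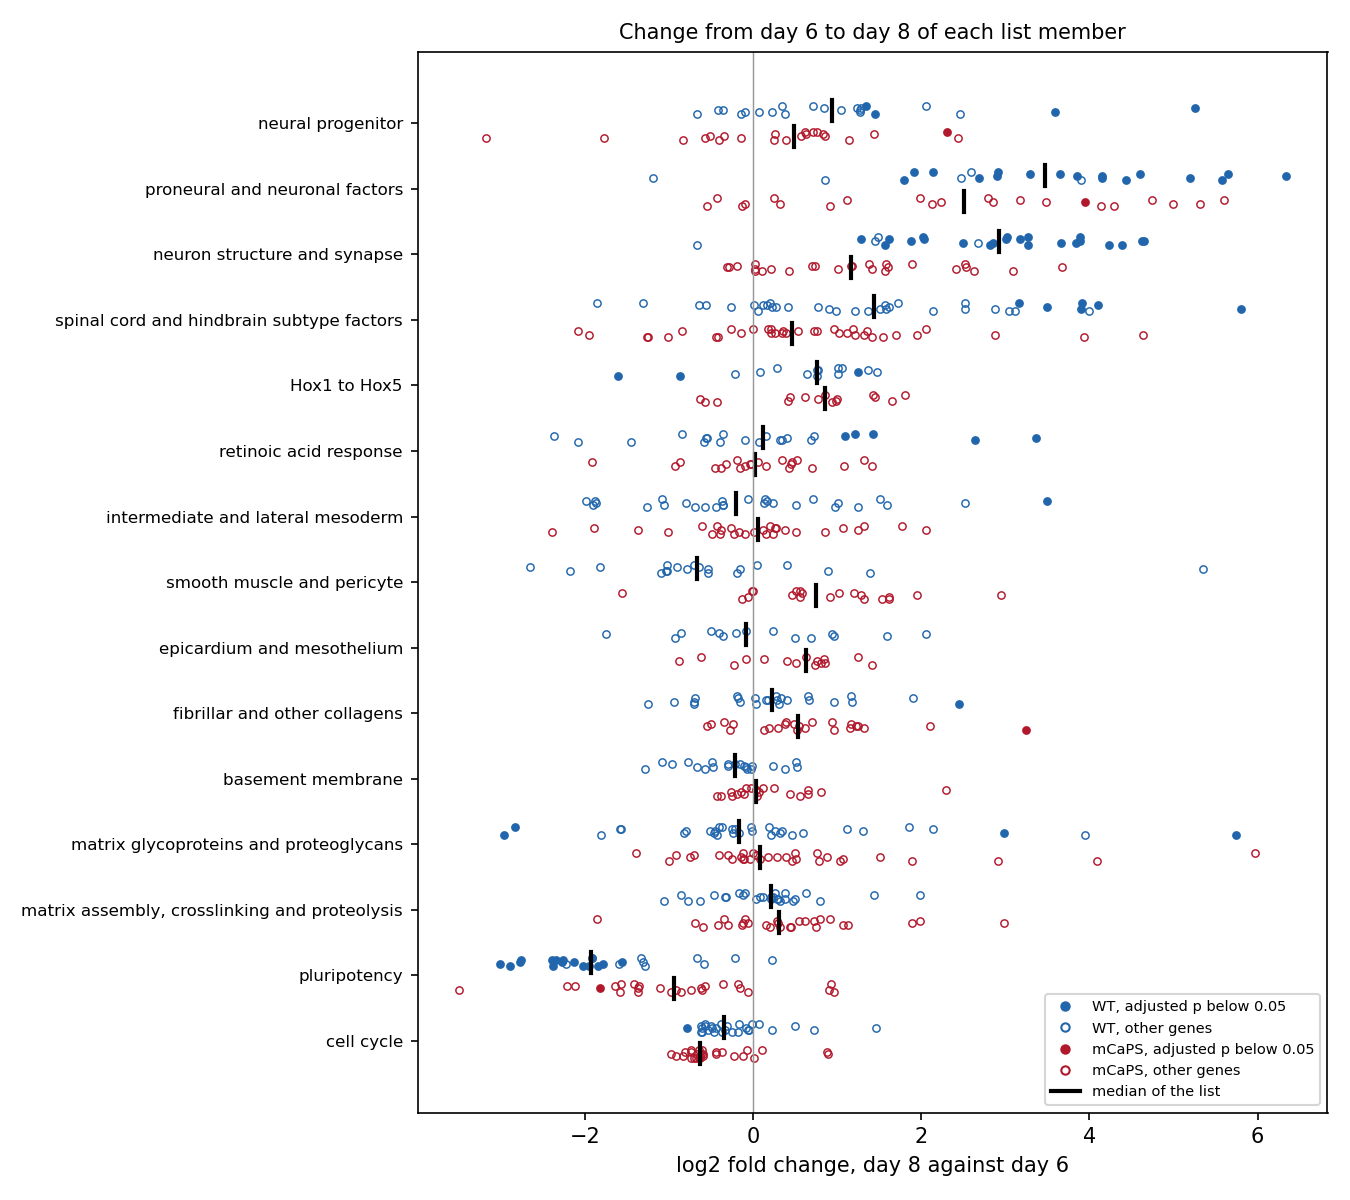
Log2 fold change of day 8 against day 6 (horizontal axis) for each tested member of 15 lists (rows), in WT (blue, upper row) and mCaPS (red, lower row), with filled symbols for genes at an adjusted p below 0.05 and a black bar for the median of the list. The medians of the neuron list are 2.93 in WT and 1.17 in mCaPS, and those of smooth muscle and pericyte genes are -0.67 and 0.75.

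On the 6 lists of mesoderm and its derivatives no gene passed the test between the days in mCaPS. At day 6 the 3 mCaPS libraries already lay above the 3 WT libraries in the mean log2(CPM + 1) of each of these lists, from 4.15 to 5.13 against 2.56 to 3.19 for epicardium and mesothelium to 1.7 to 1.8 against 1.39 to 1.54 for paraxial mesoderm, while the primitive streak list was lower, at 0.96 to 1.19 against 1.33 to 1.4. In CaPS the epicardium and mesothelium list was at 2.83 to 4.85 at day 6, and in the line labelled KO at 3.02 to 3.38. Gata4, a factor of cardiac and lateral mesoderm and of endoderm, was at 380, 158 and 505 CPM at day 6 and at 328, 200 and 343 CPM at day 8. The groups overlapped and the log2 fold change was -0.26 ± 0.78 (adjusted p = 0.955). WT libraries of Gata4 were at 7.48, 27.6 and 27.8 CPM at day 8, the line labelled KO at 15.2, 11.6 and 24.6 CPM, and CaPS at 6.42, 303 and 222 CPM. Gata6, its relative, was at 173, 100 and 262 CPM and then at 167, 80.3 and 255 CPM. Wt1, a factor of epicardium, mesothelium and the urogenital ridge, was at 107, 21.4 and 132 CPM at day 6 and at 222, 106 and 293 CPM at day 8 (1.25 ± 0.63, adjusted p = 0.491). Each day 8 library of Wt1 was above its day 6 counterpart, but library 2 of day 8 lay among the day 6 values.

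None of the 119 tested genes on the 6 lists of mesoderm and its derivatives (paraxial, intermediate and lateral mesoderm, cardiac sarcomere, smooth muscle and pericyte, epicardium and mesothelium, endothelium and blood) passed with edgeR. Their median was 0.13 in mCaPS (-0.04 without day 8 library 3 and 0.07 without day 6 library 2) and -0.44 in WT, beside 0.02 over all genes in mCaPS. DESeq2 called Mylk and Runx1 as higher and Ripply1 as lower. At an unadjusted p below 0.05 the 6 lists held 11 genes that were higher and 7 that were lower, where 6.18% and 4.38% of all genes were. At day 8, 74 of the 119 had all 3 mCaPS libraries above the 3 WT libraries and 7 below, against 17.8% and 18.2% of all genes. CaPS libraries spread more widely at day 8 in list means of log2(CPM + 1). For intermediate and lateral mesoderm they were at 1.75 to 4.06, beside 3.47 to 3.99 in mCaPS. For endothelium and blood the ranges were 1.28 to 3.29 and 2.73 to 3.21, and for paraxial mesoderm 1.54 to 2.11 and 1.85 to 1.9. Smooth muscle had 2.41 to 3.82 and 3.47 to 4.13, and cardiac sarcomere 1.1 to 2.22 and 2.22 to 3.1.

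Of the lateral mesoderm and blood genes, 3 with large falls did not pass, while other members of these lists were higher at day 8. Runx1 had a log2 fold change of 2.01 with DESeq2 (adjusted p = 0.0288). Hand1, a factor of extraembryonic and lateral mesoderm and trophoblast, was at 36.1, 16.8 and 92.9 CPM at day 6 and at 0.962, 1.58 and 25.4 CPM at day 8 (-2.39 ± 1.09, adjusted p = 0.42). Hbb-bh1, an embryonic globin, was at 125, 6.66 and 102 CPM and then at 4.69, 2.59 and 52.7 CPM (-1.97 ± 1.47, adjusted p = 0.701). Day 8 library 3 kept values of both genes within the day 6 range, and day 6 library 2 was the lowest of its day. Etv2, which specifies blood and endothelial progenitors, was at 2.7, 1.66 and 2.14 CPM and then at 0.293, 0.432 and 0.517 CPM, without overlap (-2.39 ± 0.79, adjusted p = 0.218). The endothelium and blood list as a whole had a median of -0.22 (-0.05 without day 8 library 3 and -0.44 without day 6 library 2), with 7 genes above 0 and 16 below. The intermediate and lateral mesoderm list had a median of 0.07 (-0.18 and -0.10), with 15 genes above 0 and 13 below. The leukocyte marker Ptprc was at 0 in all 6 libraries, while the endothelial cadherin Cdh5 was at 24.4, 10.8 and 32.6 CPM at day 6 and at 32.2, 12 and 14.4 CPM at day 8.

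Epicardial genes were high at both days. Upk3b, a mesothelial membrane protein, was at 69.4, 30.1 and 168 CPM at day 6 and at 47, 54.1 and 192 CPM at day 8, beside a WT mean of 2.51 CPM at day 8. Bnc1, a mesothelial and epithelial zinc finger factor, was at 69.2, 21.9 and 110 CPM and then at 63.3, 39 and 250 CPM. The list mean in log2(CPM + 1) was 4.91, 4.15 and 5.13 at day 6 and 5.17, 4.74 and 5.16 at day 8, with 1.96 to 3.31 in WT at day 8. In the line labelled KO it was 3.6 to 4.44 at day 8, and in CaPS 2.09 to 4.91. The median log2 fold change of the list was 0.63 in mCaPS (0.16 without day 8 library 3 and 0.27 without day 6 library 2). It was 1.11 in the line labelled KO, 0.30 in CaPS and -0.08 in WT. Krt8 and Krt18, simple epithelial keratins, are on this list as well, and so it is not made of mesothelial genes alone.

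Smooth muscle and pericyte genes had the highest median of the mesodermal lists, 0.75 in mCaPS (0.31 without day 8 library 3 and 0.90 without day 6 library 2) against -0.67 in WT. The median was 0.47 in the line labelled KO and 0.01 in CaPS. None of the 20 passed with edgeR (5 at an unadjusted p below 0.05, against 10.6% of all genes), and 1 passed with DESeq2, which was Mylk. In 7 the difference from the WT change had an unadjusted p below 0.05. All 7 had the higher value in mCaPS, against 4.21% of all genes in that direction. Mylk, the myosin light chain kinase, was at 2.47, 3.54 and 2.14 CPM at day 6 and at 19, 7.56 and 4.98 CPM at day 8, without overlap (1.95 ± 0.57, adjusted p = 0.146). Acta2, smooth muscle actin, was at 13.8, 18.9 and 74.9 CPM and then at 27.5, 22.2 and 281 CPM (1.62 ± 1.11, adjusted p = 0.656). Tagln, an actin-binding protein of the same cells, was at 13.3, 30.1 and 37.1 CPM and then at 19.7, 26.8 and 138 CPM. Library 3 was the highest of its day for both genes, and the other 2 day 8 libraries lay in or near the day 6 range. Without day 8 library 3 the values turned to -0.51 for Acta2 and -0.19 for Tagln.

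Matrix genes were described by 4 lists with 106 tested members: fibrillar and other collagens, basement membrane, glycoproteins and proteoglycans, and genes of matrix assembly, crosslinking and proteolysis. One of the 106, Col6a3, rose and none fell, beside 3 higher and 2 lower in WT, while DESeq2 also called Lamc3 and Prelp as higher. The median log2 fold change was 0.29 in mCaPS (0.21 without day 8 library 3 and 0.20 without day 6 library 2) and -0.01 in WT. For collagens it was 0.53 in mCaPS (0.53 and 0.60), 0.42 in the line labelled KO and 0.77 in CaPS. For basement membrane genes it was 0.04 (-0.01 and 0.08), 0.28 and -0.28 in the same order. Glycoproteins and proteoglycans had 0.09 (0.08 and 0.19), 0.64 and 0.04. Matrix assembly genes had 0.31 (0.30 and 0.14), 0.47 and 0.295. All day 8 libraries lay above all day 6 libraries in 16 of the 106 and below in 2, against 8.27% and 9.1% of all genes. At day 8, 56 of the 106 had all 3 mCaPS libraries above the 3 WT libraries and 6 below, against 17.8% and 18.2% of all genes. The collagen list mean in log2(CPM + 1) at day 8 was 3.49 to 4.78 in CaPS, beside 4.16 to 4.62 in mCaPS. For basement membrane the ranges were 4.78 to 6.66 and 6.5 to 6.78, and for glycoproteins 2.99 to 3.65 and 3.57 to 3.76. Matrix assembly had 3.52 to 5.18 and 4.6 to 5.14. Adamtsl2, a called gene of the ADAMTS-like matrix proteins, is outside these lists and is named after its values were seen. It was at 0.101, 0.0854 and 0.254 CPM at day 6 and at 1.63, 2.74 and 1.39 CPM at day 8 (3.71 ± 0.79, adjusted p = 0.0336). It also rose in WT, CaPS and the line labelled KO.

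Col6a3, a chain of the microfibrillar collagen VI of connective tissue (chr1:90766860-90843971), was at 0.338, 0.171 and 0.61 CPM at day 6 and at 6.82, 0.768 and 2.91 CPM at day 8. Library 2 of day 8 lay just above the day 6 range and library 1 far above it, and the log2 fold change was 3.25 ± 0.71 (adjusted p = 0.0387). It rose in WT as well, by 2.45 (adjusted p = 0.0327). The call was lost without each 1 of the 3 day 6 libraries, without day 8 library 1 and with no filter on low counts, and was kept without day 8 library 3 (3.38, adjusted p = 0.0403). Its partner chain Col6a1 was at 18, 10.6 and 22.1 CPM at day 6 and at 44, 14.8 and 55.6 CPM at day 8, with overlap (1.17 ± 0.66, adjusted p = 0.555).

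The collagens of fibroblasts were abundant and overlapped between days. Col1a1 was at 129, 122 and 399 CPM at day 6 and at 383, 223 and 912 CPM at day 8 (1.22 ± 0.89, adjusted p = 0.685). Col3a1 was at 348, 144 and 631 CPM and then at 463, 378 and 1320 CPM (0.94 ± 0.80, adjusted p = 0.749). In both genes each library was higher at day 8 than its day 6 counterpart and library 3 was the highest at both days, so that day 6 library 3 lay above day 8 libraries 1 and 2 for each gene. WT libraries of Col1a1 were at 28.4, 97 and 65.8 CPM at day 8, and those of Col3a1 at 22.6, 78.6 and 63.5 CPM. Per kilobase of exon, the 5 matrix genes with the most CPM in mCaPS at day 8 were Serpinh1, the collagen chaperone HSP47 (264 CPM per kb), Sparc (154), Col3a1 (129), Col18a1 (129) and the perlecan gene Hspg2 (102).

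Col11a1, a fibrillar collagen of cartilage, was at 28.5, 27 and 31 CPM at day 6 and at 69.3, 66.5 and 32.5 CPM at day 8, so that library 3 was close to day 6 (0.96 ± 0.46, adjusted p = 0.465). Lox, which crosslinks collagen and elastin, was at 0.676, 0.811 and 0.305 CPM at day 6 and at 10, 1.87 and 2.52 CPM at day 8 (2.99 ± 1.00, adjusted p = 0.225). Timp3, an inhibitor of metalloproteinases held in the matrix, was at 27.5, 20.9 and 25.3 CPM and then at 103, 63.1 and 107 CPM (1.89 ± 0.60, adjusted p = 0.195). The 3 genes had no overlap between days and did not pass with any of edgeR, the replicate block or DESeq2. Timp3 was at a WT mean of 16.9 CPM at day 8.

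**Figure D4:**
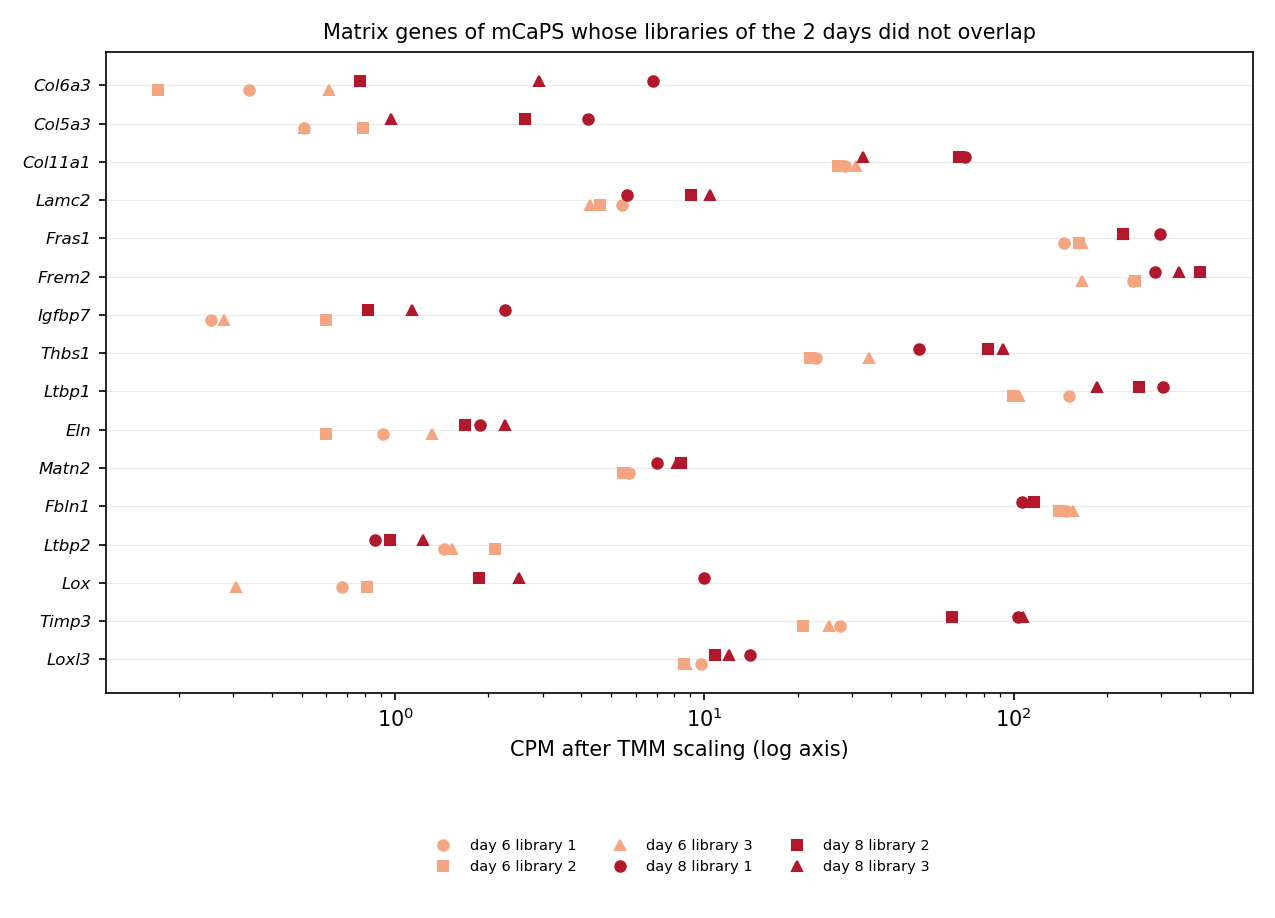
CPM in each mCaPS library (horizontal axis, log scale) of the 16 matrix genes with a mean of at least 1 CPM in the higher group whose 3 day 6 libraries (pale) and 3 day 8 libraries (dark) did not overlap, with a symbol shape for each replicate number, ordered by list. Timp3 stands at 20.9 to 27.5 CPM at day 6 and at 63.1 to 107 CPM at day 8, Fbln1 and Ltbp2 are the 2 genes lower at day 8, and of the 16 only Col6a3 passed the test.

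Thbs1, the adhesive glycoprotein thrombospondin, was at 23, 21.9 and 34.1 CPM at day 6 and at 49.5, 82.7 and 92.4 CPM at day 8 (1.51 ± 0.72, adjusted p = 0.453). Ltbp1, which tethers latent TGF beta to the matrix, was at 151, 99.5 and 104 CPM and then at 303, 254 and 186 CPM (1.07 ± 0.48, adjusted p = 0.409). Neither overlapped between days. In the other direction Tnc, tenascin C of embryonic mesenchyme, was at 232, 62.7 and 281 CPM at day 6 and at 59.4, 46.1 and 114 CPM at day 8 (-1.39 ± 0.78, adjusted p = 0.555), with day 6 library 2 inside the day 8 range. The basement membrane list had a median of 0.04 (-0.01 without day 8 library 3 and 0.08 without day 6 library 2). Fras1, which anchors epithelia, was at 145, 163 and 166 CPM and then at 296, 225 and 225 CPM, whereas Lamb1, a laminin chain, was at 313, 427 and 352 CPM and then at 238, 396 and 439 CPM. Fn1, fibronectin, was at 727, 589 and 805 CPM and then at 701, 458 and 960 CPM.

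Feeder fibroblasts make several of the same matrix genes. Their list of 22 secreted and inflammatory genes summed to 38.3 to 49.1 CPM in mCaPS at day 6 and to 34.9 to 70.7 CPM at day 8, with 28.7 to 33.6 CPM and 8.49 to 18.7 CPM in WT. None of the 22 passed with edgeR (1 at an unadjusted p below 0.05, against 10.6% of all genes), and 1 passed with DESeq2, which was C3. The feeder genes with most CPM at day 8 were Cxcl12 (mean 29 CPM) and Has2 (18.8 CPM), both of which mesoderm also expresses. The part of feeder cells in the matrix values was not tested.

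Imprinted genes that mesoderm expresses strongly were high at both days. Igf2, a fetal growth factor, was at 4150, 1910 and 4650 CPM at day 6 and at 5310, 3680 and 7240 CPM at day 8 (0.60 ± 0.72, adjusted p = 0.838), beside a WT mean of 515 CPM at day 8. H19, the noncoding RNA next to it, was at 152, 120 and 243 CPM and then at 205, 231 and 447 CPM. Library 2 was the lowest of its day for Igf2 at both days. Of the 25 imprinted genes only Cdkn1c passed in mCaPS. The summed level of the imprinted list at day 8 was 13300 to 19000 CPM in mCaPS and 4210 to 14100 CPM in CaPS. In the line labelled KO it was 5140 to 7500 CPM, and in WT 3930 to 5010 CPM.

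The genes called in mCaPS were mostly called in the other lines too, none of which shares a library with mCaPS, although all 4 lines share the fit. Of the 32 genes that rose, 17 rose in WT, 23 in the line labelled KO and 28 in CaPS, and of the 15 that fell, 8, 8 and 10 fell. In the other direction, of the 818 genes that rose in WT 85.6% had a log2 fold change above 0 in mCaPS, where 51.7% of all genes did, and 17 rose. Their median was 1.93 in WT and 0.47 in mCaPS. Of the 490 genes that fell in WT 86.5% were below 0 in mCaPS and 8 fell, with medians of -1.13 and -0.35.

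Tests of the difference between the time changes gave 0 genes with edgeR for WT, for the line labelled KO and for CaPS, with 1523 (8.55%), 747 (4.19%) and 679 (3.81%) genes at an unadjusted p below 0.05, and 70, 25 and 2 genes passed with DESeq2. For the line labelled KO, leaving out its day 8 library 3 gave 23 genes with edgeR. A call in WT that is missing in mCaPS, as for most proneural and neuronal genes, was therefore not shown to be a difference between the lines by the edgeR test.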

How the data were processed

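RNA of 6 mCaPS libraries of neural differentiation (3 at day 6 and 3 at day 8) was compared within a table of 36 libraries in 12 groups. The authors deposited raw read counts per gene (24984 genes) with gene coordinates and lengths. Tools named in the submitters' processing notes are HOMER 4.10.4, featureCounts 1.6.3, cutadapt 1.14, STAR 2.7.0 and edgeR, with the build mm10. Their roles and the strand setting are not given in the sources used here. Counts of 1 to 20 were even in 78.4 to 81.4% of cases in the 6 libraries. The cause was not tested.

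Genes passing filterByExpr (17818) were tested with edgeR 4.0.16 (R 4.3.3, limma 3.58.1), with TMM scaling, 1 quasi-likelihood fit with robust estimation over 36 libraries (24 residual degrees of freedom) and 2-sided F tests with Benjamini-Hochberg adjustment. Errors are standard errors of log2 fold changes derived from F. The scripts were tested on simulated data. Alternatives were DESeq2 1.42.0, RLE scaling, no filter, no Rn45s, a replicate block, a fit on days 6 and 8 of the lines compared, and each library left out. Named genes had an adjusted p below 0.05, a mean of at least 5 CPM in the higher group and no overlap of libraries, leaving out predicted and small RNA genes, with up to 15 each way, and members of the 35 lists could also be named. The members and lists were chosen with earlier results of these data known, so lists are described by counts and medians and get no test. Same-numbered mCaPS libraries of the 2 days deviated together (correlations of deviations from the group means of 0.22, 0.36 and 0.24), so the numbers were taken to pair them. No 2 libraries of a group were identical. Promoter windows and sequences are from RefSeq (GRCm38.p6) and matched 36 of the 47 called genes.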

Additional observations from a re-analysis of the deposited data

How the results depend on the processing

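The 29 named genes kept their direction under all 12 alternatives, and kept their call with DESeq2, RLE scaling and without Rn45s, while 27 did with no filter, 25 with the replicate block and 0 in the fit on the 6 mCaPS libraries alone, which has fewer residual degrees of freedom. For the count of 47 genes (32 higher and 15 lower) the alternatives gave 276 (184 and 92) with DESeq2, 50 with RLE scaling, 40 with no filter, 51 without Rn45s, 79 (52 and 27) with the replicate block and 0 (0 and 0) in the fit on the 6 libraries. Leaving out 1 library gave 1 to 87 genes, with 0 to 56 higher and 1 to 31 lower. The difference from WT went from 0 genes to 70 with DESeq2, to 1 with no filter (Hsd17b14) and to 12 in the fit on days 6 and 8 of the 2 lines, and was 0 to 1 with 1 library left out. The difference from the line labelled KO went from 0 to 25 with DESeq2 and was 0 to 23 with 1 library left out (23 without its day 8 library 3), and that from CaPS went to 2 with DESeq2 and was 0 otherwise. The replicate block, fitted within each line, gave 0 for all 3 differences. Same-numbered libraries deviated together in CaPS (correlations 0.55, 0.45 and 0.21) but not in every pair of WT (0.4, 0.08 and 0.34) or the line labelled KO (0.22, 0.03 and 0.04), so for the differences the numbers are only a hint of pairing. The cause of these shifts was not tested, and neither was the part of lower degrees of freedom or smaller samples in them. List members at hundredths of a CPM rest on a handful of reads.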

Other observations

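Other gene groups of mCaPS gave values only. The endoderm and yolk sac list had a median log2 fold change of -0.39 (-0.50 without day 8 library 3 and -0.36 without day 6 library 2). With edgeR 0 of 24 genes passed (3 at an unadjusted p below 0.05, against 10.6% of all genes), and with DESeq2 0. Apob, an apolipoprotein of yolk sac and liver, was at 150, 78.6 and 153 CPM at day 6 and at 14.5, 28.5 and 58.8 CPM at day 8, without overlap (-1.91 ± 1.09, adjusted p = 0.565), and Ttr, transthyretin of the same tissues, was at 23.9, 13.7 and 23.9 CPM and then at 3.18, 6.34 and 11.1 CPM. In the trophoblast and epithelium list Tfap2c, a factor of trophoblast and germ cells, was at 4.02, 15.3 and 11.3 CPM at day 6 and at 1, 2.16 and 2.88 CPM at day 8 (-2.35 ± 0.57, adjusted p = 0.0644). It passed with the replicate block (-2.29, adjusted p = 0.0426). Nfib, a factor of glia and of mesenchyme, was at 32.2, 6.55 and 23.4 CPM and then at 130, 37.2 and 53 CPM (1.82 ± 0.56, adjusted p = 0.175, and 0.0465 with DESeq2).

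In the next 4 genes day 8 library 3 had the most extreme value. Eno1, a glycolytic enzyme, was at 370, 483 and 319 CPM at day 6 and at 279, 282 and 72.5 CPM at day 8, and the hypoxia and glycolysis list had a median of -0.58 in mCaPS (-0.38 without day 8 library 3 and -0.47 without day 6 library 2) and -0.11 in WT. Vegfa, the vascular growth factor, was at 194, 199 and 153 CPM and then at 297, 237 and 403 CPM. Cdkn1a, a p53 target, was at 67.2, 56.6 and 61.7 CPM and then at 94.3, 109 and 199 CPM, and Bbc3, another p53 target, at 21.5, 40 and 17.7 CPM and then at 25.7, 27.1 and 109 CPM. None of these 4 genes passed with edgeR, and the part of library 3 in them was not tested.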
